A study of Mus musculus with 18 samples.

Results

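The effect of chronic restraint stress that liver, brain and testis share was measured in 18 of the 18 RNA sequencing libraries of the series, fitted together with tissue as a factor and stress as 1 effect over the 3 tissues. Of the 34932 genes in the deposited table, the 12496 that passed a filter on low counts in each of the 3 tissues were tested. Chronic restraint stress means that a mouse is held confined again and again. Stressed mice gave 3 libraries per tissue, and control mice gave 3 libraries per tissue. For these mice the sources used here name neither strain nor age, and they do not say how long the restraint lasted. The sample codes recur in the 3 tissues, so the libraries of 1 number within a treatment were taken as 1 animal, which gives 3 stress animals and 3 control animals, and the animal entered the fit as a random term. The question was which genes moved the same way in tissues as unlike as liver, brain and testis.

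Restraint activates the axis from the hypothalamus to the adrenal gland, and the glucocorticoids that it releases reach every organ through the blood. The glucocorticoid receptor, bound to its hormone, turns on a set of genes in most cell types, among them Fkbp5, Tsc22d3 and Zbtb16. Cells also hold responses of their own, among them the heat shock chaperones, which refold damaged proteins, and the immediate early genes, which are transcribed within minutes of a stimulus and whose mRNAs decay fast. Bulk RNA was measured, so a lower share of a cell type and less RNA per cell cannot be told apart for any gene below.

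The libraries held 27.85 to 36.5 megacounts each. Marker genes fitted the labelled tissues: hepatocyte markers summed to 94910 CPM (the share of a library's counts that a gene takes, scaled to a fixed total) or more in every liver library, neuron markers to 10810 CPM or more in every brain library, and germ cell markers to 17580 CPM or more in every testis library. Stress testis replicate 2 stood apart, with mitochondrial mRNAs at 5947 CPM in sum, against 10170 CPM or more in the other 5 testis libraries, and stromal markers at 198.8 CPM, against at most 115.6 CPM. Choroid plexus markers summed to 742.7 and 603.6 CPM in stress brain replicates 2 and 3, against at most 224.8 CPM in the other brain libraries. Hepatocyte markers summed to 499 and 320 CPM in these 2 libraries, against at most 7.81 CPM in the other brain libraries. Liver itself carried the choroid plexus list at 5439 to 9087 CPM, so these rises are not specific to either source. Whether both lists rose through the same transcripts was not tested. For stress brain replicate 3, 1 label (its description) has a code that begins like those of controls, whereas the title, treatment and column name mark it as stress, and the extraction text says hippocampus where the sample labels say brain.

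Stress moved 191 of the 12496 genes (1.53% of those tested) in the common effect, at an adjusted p under 0.05 in edgeR's voomLmFit with limma. Of these genes, 123 were higher under stress (0.984%) and 68 were lower (0.544%). In 165 of them the effect had the same sign in liver, brain and testis: 108 were higher in all 3 tissues (0.864% of the genes tested) and 57 were lower in all 3 (0.456%), while the other 26 had mixed signs. One sign in all 3 tissues was seen in 86.4% of the genes called and in 28.7% of all genes tested, a share that a call on the average of the tissues itself raises. The effects were small. Among the 165 genes, the median size of the log2 fold change, given throughout as stress over control, was 0.66 in liver, 0.32 in brain and 0.32 in testis. Only 3 genes higher and 1 gene lower changed at least 2-fold in every tissue (8 and 6 at least 1.5-fold). Liver had the largest effect of the 3 tissues in 121 of the 165 genes, brain in 24 and testis in 20. Over all tested genes of 1 sign, liver had the largest effect in 49.4%.

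How many genes were called depended on how the animal was treated. The estimated correlation between tissues of 1 animal was slightly negative (-0.07), which narrows the errors of an effect averaged over tissues. On simulated data this fit made more false calls than its threshold of 0.05 allows, so the 191 calls and the adjusted p-values near the threshold are to be read as too lenient. With that correlation taken as 0, an alternative chosen after seeing the data, 54 genes were higher and 17 lower in all 3 tissues, and with 1 mean per animal over the tissues, 3 animals against 3, there were 9 and 2. edgeR's quasi-likelihood test without an animal term called 9 higher and 0 lower. In the fits that each leave out the 3 libraries of 1 animal, 27 of the 191 genes were called every time, 22 of them with 1 sign in all 3 tissues. With 1 mean per animal, 9 of the 191 were called. With equal weight for the 3 tissues, also chosen after seeing the data, 78 of the 191 genes were called. Only 3 genes were called in each of the 3 fits on a pair of tissues: Amd2, Abhd3 and Gm6969.

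Amd2 had the largest effect in its weakest tissue among the genes that the rule for named genes took. It encodes S-adenosylmethionine decarboxylase, the enzyme that supplies the aminopropyl groups of the polyamines spermidine and spermine. Its level was 2.82, 3.32 and 4.45 CPM in stress livers, against 0.524, 1.01 and 1.36 CPM in control livers. In brain it was 9.57, 9.01 and 8.65 CPM in stress brains, against 4.94, 2.28 and 3.32 CPM in control brains, and in testis 3.43, 4.27 and 4.38 CPM in stress testes, against 0.938, 1.73 and 1.41 CPM in control testes. Every stress library lay above every control library of its tissue. The common log2 fold change was 1.60 ± 0.16 (SE, n = 9 libraries from 3 animals per treatment, adjusted p = 2.45e-05), with 1.94 ± 0.36 in liver, 1.43 ± 0.25 in brain and 1.59 ± 0.34 in testis. Of the 50-base words in Amd2 transcripts, 85.7% also occur in other genes, mostly Amd1, which was not called (0.09 ± 0.09, adjusted p = 0.609). The counts of Amd2 depend on how shared reads were assigned. Smox, spermine oxidase, which breaks down spermine and was picked after its values were seen, was also higher, at 49.2, 49.9 and 52.8 CPM in stress brains, against 35.1, 38.3 and 40.4 CPM in control brains, and stress and control overlapped in none of the tissues (0.43 ± 0.09, adjusted p = 0.0196).

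Gm6969, a processed pseudogene passed over by the rule for named genes and described here after its values were seen, showed the largest difference of the 12496 genes. Its level was 20.3, 15.3 and 7.68 CPM in stress livers, against 0.553, 1.01 and 0.558 CPM in control livers. It was 26.2, 26.9 and 14.9 CPM in stress brains, against 0.952, 0.431 and 0.443 CPM in control brains, and 17.4, 19 and 6.68 CPM in stress testes, against 0, 0.361 and 0.0639 CPM in control testes. Stress replicate 3 had the lowest of the stress values in all 3 tissues and still stood far above the controls, which were near or at 0. The log2 fold change was 5.47 ± 0.52 (adjusted p = 2.17e-05), and Gm6969 was the 1 gene called in each tissue by itself with edgeR's quasi-likelihood test. Of its 50-base words, 69.3% also occur in other genes, mostly Cox7a2l, a factor of respiratory supercomplex assembly. Cox7a2l was lower under stress: 75.2, 66.9 and 92.2 CPM in stress brains, against 104, 98.2 and 100.1 CPM in control brains, with a common log2 fold change of -0.31 ± 0.07 (adjusted p = 0.0301). Reads of these genes cannot be fully separated by their sequence.

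Abhd3, a hydrolase of medium-chain phospholipids, was higher in every tissue. Its level was 49.6, 51.04 and 68.4 CPM in stress livers, against 33.02, 41.4 and 44.5 CPM in control livers. In brain it was 49.1, 52.6 and 48.1 CPM in stress brains, against 40.2, 37.4 and 37.2 CPM in control brains, and in testis 11.8, 10.5 and 10.97 CPM in stress testes, against 7.61, 8.05 and 6.17 CPM in control testes. No stress library overlapped a control library of its tissue, and the effects were 0.50 ± 0.12 in liver, 0.38 ± 0.12 in brain and 0.62 ± 0.21 in testis (common 0.47 ± 0.07, adjusted p = 0.00295). Tent5a, a poly(A) polymerase that lengthens the tails of mRNAs of secreted proteins, was also apart in every tissue: 14.1, 12.03 and 12.7 CPM in stress brains, against 6.96, 8.26 and 7.34 CPM in control brains, with effects of 0.83 ± 0.21 in liver, 0.78 ± 0.19 in brain and 0.76 ± 0.40 in testis (common 0.80 ± 0.12, adjusted p = 0.00295). Its testis level was near 1 CPM, so that value rests on few counts. The plot of CPM by library shows these genes beside others that were higher under stress.

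**Figure D1:**
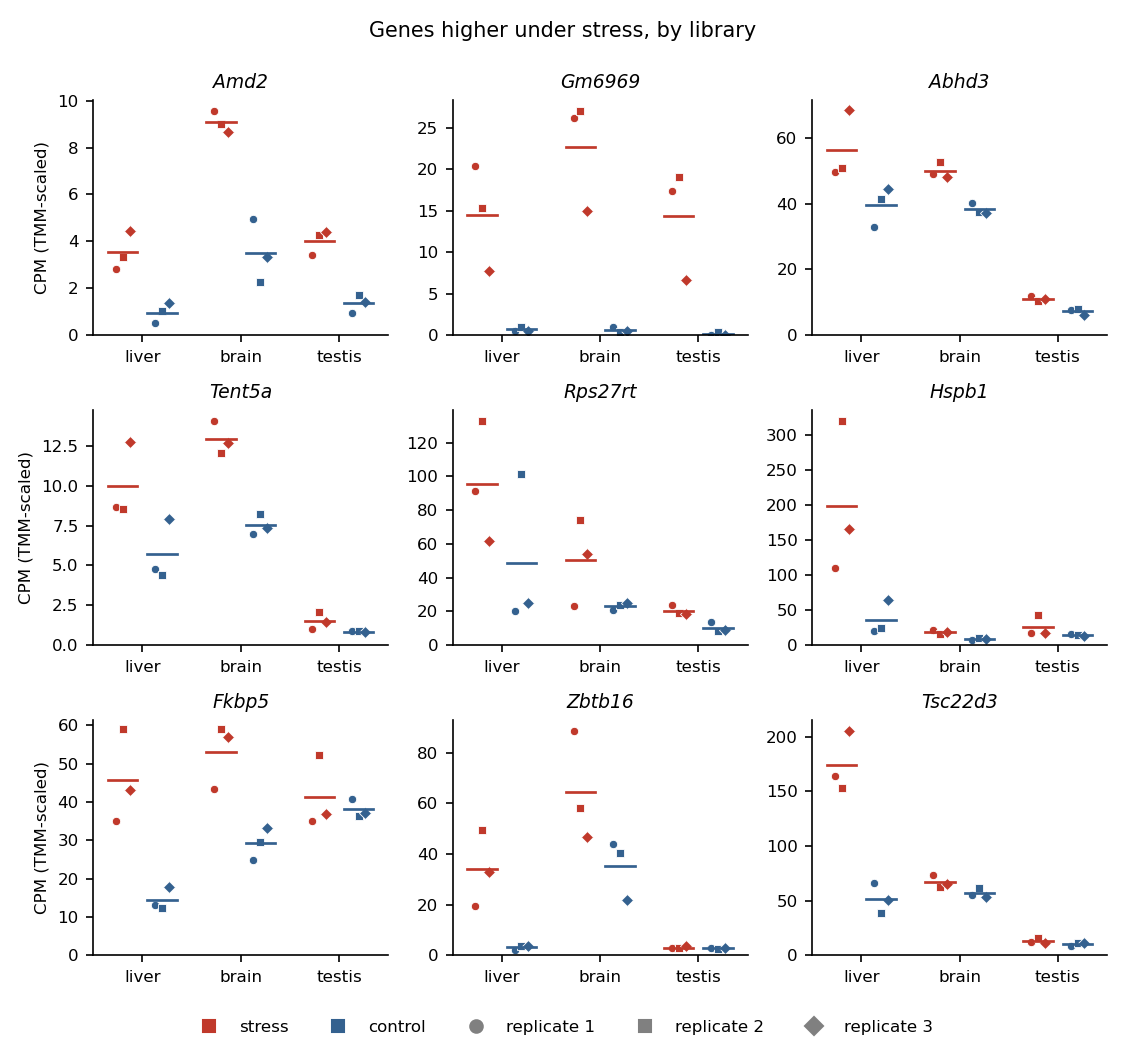
CPM (scaled with TMM factors, linear axis from 0) of 9 genes in each library of liver, brain and testis. Red marks are stress and blue marks control libraries, marker shapes are replicate numbers and lines are means of 3 libraries. Amd2, Gm6969, Abhd3, Tent5a and Hspb1 do not overlap between stress and control in any tissue, while Fkbp5, Zbtb16 and Tsc22d3 separate in liver and brain and overlap in testis.

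Several regulators were higher and were called whichever animal was left out. Rxra, the retinoid X receptor that pairs with many nuclear receptors, had effects of 0.32 ± 0.08 in liver, 0.35 ± 0.10 in brain and 0.27 ± 0.10 in testis (common 0.32 ± 0.05, adjusted p = 0.00295). Its level was 365, 358 and 373 CPM in stress livers, against 282, 305 and 290.1 CPM in control livers. Traf3, an adaptor of tumour necrosis factor receptors that restrains noncanonical NF-kappaB signalling, was at 77.3, 84.8 and 74.6 CPM in stress brains, against 61.7, 60.3 and 63.2 CPM in control brains (common 0.40 ± 0.06, adjusted p = 0.00360). Upf1, the helicase of nonsense-mediated mRNA decay, was at 144, 139 and 144 CPM in stress testes, against 112, 122 and 110.3 CPM in control testes and separated the groups in all 3 tissues (common 0.36 ± 0.06, adjusted p = 0.00870). Mettl7a1, a methyltransferase-like protein of lipid droplets, was highest in liver, with 347, 409.9 and 354 CPM in stress livers, against 280.2, 285 and 223 CPM in control livers (common 0.46 ± 0.07, adjusted p = 0.00234). Rxra, Traf3 and Upf1 were named after their values were seen. With 1 mean per animal none of these regulators was called, nor was Mettl7a1. The adjusted p was 0.183 for Rxra, 0.110 for Traf3, 0.157 for Upf1 and 0.120 for Mettl7a1 (limma). Without the liver libraries Upf1 was called and Rxra, Traf3 and Mettl7a1 were not.

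Heat shock chaperones leaned higher in liver and brain, by their medians most in liver. Of 24 tested, 4 were called higher (Hspb1, Ahsa1, Fkbp4 and Serpinh1) and 0 lower, beside 0.984% of all genes tested called higher. Their median log2 fold change was 0.31 in common, 0.59 in liver, 0.31 in brain and 0.03 in testis, beside 0.00 in common over all genes tested, and 21 of the 24 common effects were positive. Their summed level was 6412, 10780 and 7738 CPM in stress livers, against 4367, 5680 and 7446 CPM in control livers. In testis it was 5790, 4847 and 5958 CPM under stress, against 6686, 6017 and 5936 CPM in controls. The sums overlapped in liver and testis and were apart in brain. Hspb1, a small heat shock protein that holds unfolded proteins, was at 109.7, 319 and 166 CPM in stress livers, against 20.7, 24.6 and 64.3 CPM in control livers. In brain the values were 21.4, 16.5 and 18.4 CPM in stress brains, against 7.08, 9.80 and 9.45 CPM in control brains, and in testis they were 17.6, 43.6 and 16.96 CPM in stress testes, against 16.4, 14.5 and 13.4 CPM in control testes. Liver of stress replicate 2 and testis of stress replicate 2 were the highest of their tissues, and the groups overlapped in none of the 3 (common 1.70 ± 0.30, adjusted p = 0.00870). Of its 50-base words, 50.1% also occur in other genes, mostly the pseudogene Hsp25-ps1.

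Ahsa1, which activates the ATPase of Hsp90, was at 117, 126 and 126 CPM in stress livers, against 77.8, 76.5 and 90.5 CPM in control livers. Its brain values were 114, 109 and 126 CPM in stress brains, against 97.2, 97.6 and 89.2 CPM in control brains. In testis it was 48.3, 48.3 and 46.5 CPM in stress testes, against 41.8, 44.6 and 42.8 CPM in control testes, and the groups overlapped in no tissue, with effects of 0.60 in liver, 0.30 in brain and 0.15 in testis (common 0.36 ± 0.06, adjusted p = 0.00360). Its relative Ahsa2, named after its values were seen, had effects of 0.86 in liver, 0.38 in brain and 0.17 in testis (common 0.53 ± 0.12, adjusted p = 0.0316). Fkbp4, the co-chaperone that with Hsp90 keeps steroid receptors ready for hormone, had effects of 0.58 ± 0.09 in liver, 0.30 ± 0.10 in brain and 0.09 ± 0.09 in testis, with no overlap (common 0.32 ± 0.06, adjusted p = 0.0184). Serpinh1, the collagen chaperone of the endoplasmic reticulum, was led by brain, at 27.6, 25.4 and 25.4 CPM in stress brains, against 15.6, 15.9 and 17.2 CPM in control brains (common 0.46 ± 0.11, adjusted p = 0.0369). Hspb1 and Ahsa1 were called in all 6 fits that leave out 1 animal, Fkbp4 in 2, and Serpinh1 and Ahsa2 in 1. Without the liver libraries 1 of the 24 chaperones was called, and with 1 mean per animal 0 were.

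Genes induced by glucocorticoids were called higher in 8 of 30 cases and lower in 0. They were Angptl4, Per2, Mertk, Tsc22d3, Nfkbia, Klf15, Fkbp5 and Zbtb16. Nfkbia, the inhibitor that holds NF-kappaB in the cytosol, had a common effect of 0.47 ± 0.11 (adjusted p = 0.0386). The 8 calls stand beside 0.984% of all genes tested called higher, and 15 of the 30 had an unadjusted p under 0.05, beside 2210 of all 12496. The members went both ways, with 18 of 30 effects positive and a median common log2 fold change of 0.09. The list's medians were 0.01 in liver, 0.15 in brain and 0.15 in testis. Without control replicate 2, 3 of the 30 were called. Without the liver libraries 0 were, while 21 of the 30 effects were positive and the median was 0.19. Fkbp5, which holds the glucocorticoid receptor in a state of low affinity, was at 34.96, 58.96 and 43.03 CPM in stress livers, against 13.1, 12.3 and 17.8 CPM in control livers. Its brain level was 43.3, 58.95 and 56.9 CPM in stress brains, against 24.8, 29.6 and 33.2 CPM in control brains, whereas in testis it was 34.9, 52.1 and 36.9 CPM in stress testes, against 40.6, 36.3 and 37.2 CPM in control testes. The groups were apart in liver and brain and overlapped in testis, and the effects were 1.66 ± 0.22 in liver, 0.86 ± 0.19 in brain and 0.09 ± 0.19 in testis (common 0.83 ± 0.16, adjusted p = 0.0163). The effect of Fkbp5 differed between tissues (adjusted p = 0.0375, F test of the tissue terms).

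Zbtb16, a zinc finger transcription factor, was at 19.4, 49.6 and 33.03 CPM in stress livers, against 2.12, 3.60 and 3.57 CPM in control livers. Its brain level was 88.5, 58.1 and 46.6 CPM in stress brains, against 43.8, 40.2 and 21.99 CPM in control brains, and its testis level 2.69, 2.73 and 3.61 CPM in stress testes, against 2.85, 2.42 and 2.88 CPM in control testes, so the groups overlapped in testis alone (common 1.45 ± 0.30, adjusted p = 0.0200). Tsc22d3, also called GILZ, which blocks NF-kappaB and AP-1, had effects of 1.78 ± 0.15 in liver, 0.24 ± 0.16 in brain and 0.30 ± 0.26 in testis. Liver held most of the change: 164, 153 and 205 CPM in stress livers, against 66.4, 38.2 and 50.1 CPM in control livers (common 0.92 ± 0.18, adjusted p = 0.0140). With 1 mean per animal Zbtb16 and Tsc22d3 were called and Fkbp5 was not (adjusted p = 0.130, limma), and edgeR's quasi-likelihood test called none of the list. Of the 6 fits without 1 animal, Angptl4 and Per2 were called in 6, Tsc22d3 in 5, Mertk and Klf15 in 4, and Fkbp5 and Zbtb16 in 3. Mertk, a receptor for the uptake of dying cells, was apart in liver and brain, at 43.5, 48.2 and 44.6 CPM in stress brains, against 34.7, 30.9 and 31.97 CPM in control brains (common 0.39 ± 0.07, adjusted p = 0.00967). Per2, a clock gene with glucocorticoid input, had effects of 1.22 in liver, 0.59 in brain and -0.09 in testis (common 0.76 ± 0.12, adjusted p = 0.00295), and Klf15, which drives amino acid breakdown, had effects of 0.61 in liver, 0.31 in brain and -0.03 in testis (common 0.45 ± 0.09, adjusted p = 0.0136). Both had a negative value in testis and so do not count among the genes of 1 sign. Angptl4, an inhibitor of lipoprotein lipase that fasting also induces, was led by liver, 149.5, 92.96 and 134 CPM in stress livers, against 28.4, 19.9 and 25.3 CPM in control livers (common 1.97 ± 0.22, adjusted p = 7.47e-05). With equal weight for the tissues its effect was 1.21.

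Per1, Sgk1 and Nr3c1 were not called. Per1, a clock gene that glucocorticoids induce quickly, had effects of 0.25 in liver, -0.02 in brain and 0.25 in testis (common 0.16 ± 0.13, adjusted p = 0.530). Sgk1, a kinase under the same receptor, had effects of -0.73 in liver, -0.07 in brain and 0.22 in testis (common -0.21 ± 0.12, adjusted p = 0.351), and Nr3c1, the glucocorticoid receptor itself, had -0.05 in liver, -0.22 in brain and -0.37 in testis (common -0.18 ± 0.09, adjusted p = 0.314).

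Promoter windows ran from 250 bases before to 50 after the start of a gene. The core of the glucocorticoid response element, ACANNNTGT, lay on either strand in 3 of the 25 tested genes of the list with a window and in 0 of the 5 called ones, a number too small to read, beside 5.05% of all tested genes and 6.85% of all 32851 RefSeq promoters of this length. The full palindromic glucocorticoid response element, which contains the core, was in 1 of the 25, Sgk1. Fkbp5 held an E-box there, CACGTG, the site of clock and Myc factors, at 169 bases before the start. The window of Fkbp5 is shown because Fkbp5 is the receptor's best known feedback gene and its change was called (RefSeq, GRCm38.p6, written 5′ to 3′, with the E-box in capitals). An E-box occurs in 7.15% of all these promoters and, by gene, in any window of 12.02% of the tested genes that have one. Klf15 held 3 E-boxes.
Fkbp5 (chr17:28486100-28486399, minus strand): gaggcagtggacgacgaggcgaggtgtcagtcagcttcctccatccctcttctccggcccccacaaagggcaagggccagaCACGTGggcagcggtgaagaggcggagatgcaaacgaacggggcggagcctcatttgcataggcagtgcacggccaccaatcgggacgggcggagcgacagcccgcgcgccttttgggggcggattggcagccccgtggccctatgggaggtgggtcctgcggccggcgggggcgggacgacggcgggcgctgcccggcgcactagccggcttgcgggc

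Genes of the unfolded protein response in the endoplasmic reticulum were called higher in 2 of 24 cases and lower in 0, with a median of 0.17. For comparison, 0.984% of the 12496 genes were called higher, and their median was 0.00. Of the 24 effects, 7 were negative. By tissue, the list's median was 0.28 (liver), 0.20 (brain) and 0.0007 (testis), so by this measure testis showed almost no shift. Sdf2l1, part of a chaperone complex in the endoplasmic reticulum, was higher in all 3 tissues, with effects of 0.93 ± 0.22 in liver, 0.63 ± 0.31 in brain and 0.35 ± 0.24 in testis (common 0.66 ± 0.14, adjusted p = 0.0196). Its level was 58.6, 50.05 and 72.8 CPM in stress livers, against 46.8, 23.3 and 27.8 CPM in control livers. Pdia6, a disulfide isomerase, had effects of 0.31 ± 0.07 in liver, 0.31 ± 0.07 in brain and 0.01 ± 0.07 in testis (common 0.21 ± 0.05, adjusted p = 0.0327). Stress and control did not overlap in liver and brain for Pdia6, with 133, 138 and 142 CPM in stress brains, against 115, 109.7 and 108 CPM in control brains. Without 1 animal, Sdf2l1 was called in 3 of 6 fits and Pdia6 in 1.

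Some genes of antigen presentation and of macrophages were higher. Of 7 genes of MHC class II, which presents peptides to T cells, 3 were called higher (Cd74, H2-Ab1 and H2-Eb1), beside 0.984% of all genes tested. The list's medians were 1.24 in liver, 0.03 in brain and 0.74 in testis. H2-Ab1 was at 37.5, 22.6 and 36 CPM in stress livers, against 16.4, 10.4 and 13.5 CPM in control livers. In testis it was 8.64, 18.1 and 12.5 CPM in stress testes, against 6.96, 9.43 and 8.02 CPM in control testes, with stress replicate 2 the highest (common 0.91 ± 0.16, adjusted p = 0.00740). Cd74, the invariant chain, was at 9.91, 34.6 and 14.7 CPM in stress testes, against 7.10, 8.38 and 6.32 CPM in control testes (common 1.08 ± 0.19, adjusted p = 0.00957). Without stress testis replicate 2 the count was again 3, without control replicate 2 it was 1, and with equal weight for the 3 tissues it was 0. Of 12 macrophage and microglia markers tested, 1 was called, Lyz2, a lysozyme, at 38.9, 24.1 and 26.6 CPM in stress livers, against 11.9, 13.7 and 13.3 CPM in control livers (common 0.86 ± 0.17, adjusted p = 0.0132). All 17 markers of that list summed to 237.8 to 291.5 CPM in stress livers, against 119.4 to 138.5 CPM in control livers. The sums were 255.5 to 290.1 CPM in stress brains, against 247.3 to 302.5 CPM in control brains, and 417.3 to 521.4 CPM in stress testes, against 355.1 to 364.1 CPM in control testes. Neutrophil and lymphocyte markers, of which 1 and 2 were tested, had 0 calls. Neutrophil markers summed to 3.64 to 6.39 CPM in stress livers, against 5.80 to 11.6 CPM in control livers, and lymphocyte markers to 27.4 to 52.3 CPM in stress livers, against 17.4 to 50.3 CPM in control livers, so both overlapped. Of 17 MHC class I genes 0 were called, with a liver median of -0.11. The part of macrophage number in these differences was not tested.

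Ncf1, a subunit of the phagocyte NADPH oxidase, and Cfp, properdin, which sustains the alternative complement pathway, were higher in all 3 tissues. Ncf1 had effects of 1.41 ± 0.28 in liver, 0.51 ± 0.20 in brain and 0.47 ± 0.33 in testis (common 0.76 ± 0.16, adjusted p = 0.0195), at 5.37, 5.93 and 5.45 CPM in stress brains, against 3.21, 3.73 and 4.99 CPM in control brains. Cfp had effects of 0.74 ± 0.23 in liver, 0.60 ± 0.21 in brain and 0.56 ± 0.52 in testis (common 0.65 ± 0.14, adjusted p = 0.0208), with groups apart in liver and overlapping in brain and testis. Oas2, which senses double-stranded RNA, was the 1 called gene of 22 interferon-stimulated genes, at 6.21, 5.22 and 5.40 CPM in stress livers, against 2.18, 1.34 and 1.36 CPM in control livers (common 1.07 ± 0.23, adjusted p = 0.0208). Its brain and testis levels lay near or below 1 CPM. Ncf1 was called in 3 of the 6 fits without 1 animal, Cfp in 2 and Oas2 in 1.

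The remaining named genes higher in all 3 tissues had varied roles. Ucp2, an uncoupling protein of the inner mitochondrial membrane, had effects of 0.75 ± 0.25 in liver, 0.53 ± 0.21 in brain and 0.43 ± 0.17 in testis, with no overlap in any tissue, at 35.5, 54.5 and 38.6 CPM in stress testes, against 29.1, 33.04 and 31.8 CPM in control testes (common 0.53 ± 0.11, adjusted p = 0.0184). Dmpk, the kinase of myotonic dystrophy, was at 37.1, 38.5 and 36 CPM in stress livers, against 27.3, 20.3 and 18.7 CPM in control livers, also with no overlap in any tissue (common 0.57 ± 0.11, adjusted p = 0.0116). P4ha2, a subunit of the collagen prolyl hydroxylase, was at 14.1, 13.8 and 15.1 CPM in stress livers, against 4.36, 5.62 and 6.11 CPM in control livers and kept its call whichever animal was left out (common 0.77 ± 0.14, adjusted p = 0.00920). With 1 mean per animal P4ha2 was not called (adjusted p = 0.0906, limma). Stress replicate 2 was the highest testis library for Ucp2, Dmpk and P4ha2 alike. Crip3, a LIM domain protein, had effects of 0.84 in liver, 0.70 in brain and 0.48 in testis (common 0.67 ± 0.14, adjusted p = 0.0203). Atp5k, subunit e of the ATP synthase, was led by brain, 61.3, 60.7 and 71.2 CPM in stress brains, against 40.5, 37.6 and 41.4 CPM in control brains (common 0.48 ± 0.09, adjusted p = 0.00971), and was the 1 called gene of 53 nuclear genes of the respiratory chain. Rps27rt, a copy of the ribosomal protein gene Rps27, had effects of 1.29 ± 0.44 in liver, 0.98 ± 0.49 in brain and 1.02 ± 0.67 in testis (common 1.12 ± 0.26, adjusted p = 0.0370). Of its 50-base words 91.1% also occur in other genes, mostly Rps27, which was not called (-0.26 ± 0.12, adjusted p = 0.256), and control liver replicate 2, at the level of the stress livers, made the groups overlap for Rps27rt. Dmpk was called in 5 of the 6 fits without 1 animal, Atp5k in 4, Crip3 in 3, and Ucp2 and Rps27rt in 2.

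Immediate early genes had a negative common effect in all 24 tested. Of these, 5 were called lower (Fosb, Btg2, Zfp36, Junb and Socs3), 0 higher, and 13 had a negative effect in each of the 3 tissues. Over all 12496 genes tested, 0.544% were called lower, 1696 were negative in each tissue, and the median common effect was 0.00. The list's median log2 fold change was -1.04 in common, -2.63 in liver, -0.43 in brain and -0.04 in testis. The summed level of the 24 genes was 386, 4469 and 430.7 CPM in stress livers, against 5082, 6409 and 5712 CPM in control livers. In brain it was 3136, 1680 and 1835 CPM in stress libraries, against 3400, 3869 and 2754 CPM in control libraries, and in testis 717.8, 928.1 and 671.1 CPM in stress libraries, against 716.7, 790 and 888.7 CPM in control libraries. Stress liver replicate 2 lay just under the lowest control liver, and the other stress livers far below it. Without the 3 libraries of stress replicate 2 the median was -1.49 and 8 genes were called, without control replicate 2, 1 was called, and without the liver libraries it was -0.36, 16 of 24 were negative and 0 were called.

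Btg2, which slows the cell cycle, had the largest negative effect of the genes called. It was at 5.76, 143 and 7.91 CPM in stress livers, against 334, 525 and 532 CPM in control livers. For brain the values were 41.7, 40.8 and 27.4 CPM in stress brains, against 148, 168 and 59.1 CPM in control brains, and for testis 3.70, 13.7 and 3.61 CPM in stress testes, against 8.51, 12.9 and 29.4 CPM in control testes. Stress and control did not overlap in liver or brain and did in testis, where stress replicate 2 lay above 2 of the controls (effects of -4.56 ± 0.72 in liver, -1.65 ± 0.66 in brain and -1.42 ± 1.18 in testis, common -2.94 ± 0.55, adjusted p = 0.0108). Fosb, a partner of Jun proteins in the AP-1 factor, was at 1.28, 4.56 and 1.05 CPM in stress livers, against 25.6, 23.1 and 29.8 CPM in control livers. Its brain level was 48.1, 27.8 and 28.1 CPM in stress brains, against 68.1, 77.6 and 57.1 CPM in control brains, again with no overlap (common -1.48 ± 0.29, adjusted p = 0.0156). Junb, the Jun protein that restrains AP-1, was at 39.6, 363 and 25.2 CPM in stress livers, against 676, 908 and 611 CPM in control livers, with effects of -3.32 in liver, -1.01 in brain and -0.73 in testis (common -1.98 ± 0.45, adjusted p = 0.0316). Zfp36, tristetraprolin, which marks cytokine mRNAs for decay, had effects of -2.61 ± 0.53 in liver, -0.78 ± 1.22 in brain and -0.70 ± 1.05 in testis (common -1.97 ± 0.45, adjusted p = 0.0325). Its brain and testis groups overlapped. Of the 6 fits without 1 animal, Btg2 and Fosb were called in 4, and Junb and Zfp36 in 1.

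Ccn1, a matrix protein also transcribed early after a stimulus, had effects of -1.46 ± 0.48 in liver, -1.63 ± 0.57 in brain and -0.99 ± 1.04 in testis (common -1.47 ± 0.31, adjusted p = 0.0208). Its brain level was 21.1, 12.8 and 11.4 CPM in stress brains, against 58.98, 70.8 and 22.5 CPM in control brains. Ccn1 was called in 3 of the 6 fits without 1 animal. Ppp1r15a, GADD34, which brings a phosphatase to the initiation factor eIF2 and was named after its values were seen, kept its call whichever animal was left out: 13.9, 24.01 and 13.6 CPM in stress livers, against 50.1, 42.6 and 48.9 CPM in control livers, and 16.3, 16.1 and 14.8 CPM in stress brains, against 22.5, 21.8 and 20.4 CPM in control brains (common -0.88 ± 0.16, adjusted p = 0.00920). With 1 mean per animal Ppp1r15a was not called (adjusted p = 0.168, limma). Socs3, a feedback inhibitor of cytokine receptors, was called (common -2.26 ± 0.40, adjusted p = 0.00870), yet its effects were -3.39 ± 0.28 in liver, -0.06 ± 0.49 in brain and 0.62 ± 0.62 in testis. The liver level was 7.49, 21.6 and 8.99 CPM in stress livers, against 125, 122 and 114 CPM in control livers. Its brain level was 3.88, 4.91 and 3.89 CPM in stress brains, against 5.65, 3.97 and 3.77 CPM in control brains. The fit weights a tissue by how precisely it measures a gene, so a gene abundant in 1 tissue takes its common value mostly from there. With equal weight for the tissues the effect of Socs3 was -0.94 (adjusted p = 0.0920, limma).

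**Figure D2:**
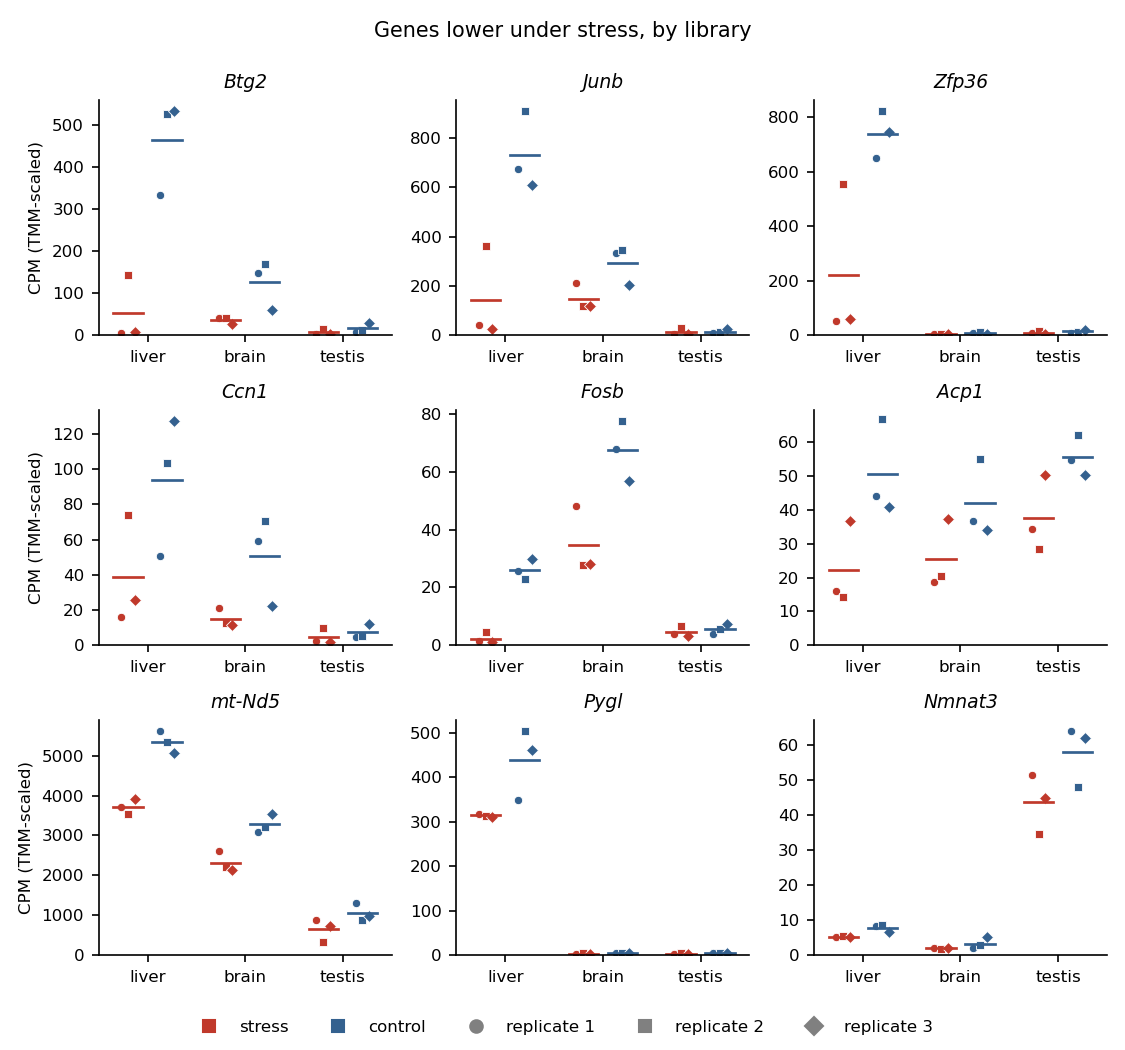
CPM (scaled with TMM factors, linear axis from 0) of 9 genes lower under stress, in each library. Red marks are stress and blue marks control libraries, marker shapes are replicate numbers and lines are means of 3 libraries. For Btg2, Junb and Zfp36, stress liver replicate 2 lies between the other stress livers and the controls, and for Acp1 replicate 3 is the highest stress library in all 3 tissues.

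Btg2 and Ppp1r15a were the named genes with a full cAMP response element, TGACGTCA, the site of CREB and ATF factors, in the promoter window, 166 and 12 bases before the start. This palindrome reads the same on both strands and occurs in 1.79% of all promoters. By gene, counted if any of its windows held the element, the share was 3.68% of those tested and 3.68% of those called. Among immediate early genes it was in 3 of the 21 with a window. The windows are shown because both genes were called lower and did not overlap in liver or brain (RefSeq, GRCm38.p6, 5′ to 3′, the element in capitals).
Btg2 (chr1:134079106-134079405, minus strand): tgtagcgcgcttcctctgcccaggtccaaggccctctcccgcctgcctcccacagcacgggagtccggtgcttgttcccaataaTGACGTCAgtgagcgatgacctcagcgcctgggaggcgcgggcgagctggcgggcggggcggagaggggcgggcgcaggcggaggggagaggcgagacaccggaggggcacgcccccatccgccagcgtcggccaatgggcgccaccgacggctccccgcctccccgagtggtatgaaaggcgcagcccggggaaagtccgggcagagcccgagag
Ppp1r15a (chr7:45526219-45526518, minus strand): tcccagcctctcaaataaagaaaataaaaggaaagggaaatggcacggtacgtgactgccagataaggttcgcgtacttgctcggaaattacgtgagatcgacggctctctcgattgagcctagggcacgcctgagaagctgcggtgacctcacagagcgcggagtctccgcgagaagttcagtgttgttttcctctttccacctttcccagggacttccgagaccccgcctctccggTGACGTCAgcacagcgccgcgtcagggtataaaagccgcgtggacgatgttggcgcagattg

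Genes of cholesterol synthesis leaned lower, mainly in liver. Of 25 tested, 4 were called lower, among them Hsd17b7, Sc5d and Hmgcs1, and 0 higher, beside 0.544% of all genes tested called lower. Of the 25 common effects, 24 were negative. The median was -0.31 in common, beside 0.00 over all genes tested, and -0.80 in liver, -0.03 in brain and -0.03 in testis. Hsd17b7, a reductase of the late pathway, was the called member with no overlap in any tissue: 37.5, 50.7 and 42.2 CPM in stress livers, against 58.3, 91.4 and 86.98 CPM in control livers, 23.5, 26.3 and 26.6 CPM in stress brains, against 27.5, 28.9 and 26.9 CPM in control brains, and 3.87, 3.29 and 3.75 CPM in stress testes, against 4.08, 4.22 and 6.68 CPM in control testes (common -0.52 ± 0.12, adjusted p = 0.0316). Sc5d, the desaturase of a step near the end, had effects of -0.81 in liver, -0.09 in brain and -0.27 in testis (common -0.46 ± 0.11, adjusted p = 0.0354). Hmgcs1, which makes HMG-CoA in the cytosol, was apart in liver and testis, 74.6, 59.6 and 76.4 CPM in stress testes, against 88.2, 80.6 and 93.9 CPM in control testes, and had effects of -1.55 ± 0.18 in liver, -0.18 ± 0.17 in brain and -0.33 ± 0.20 in testis (common -0.69 ± 0.16, adjusted p = 0.0317). Leaving out control replicate 2, control replicate 3, stress replicate 1 or stress replicate 3 left 0 of the 25 genes called, and so did leaving out the liver or testis libraries.

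An E-box, CACGTG, lay in the promoter windows of Hsd17b7 and Sc5d, 143 and 98 bases before the start. It was in 4 of the 17 genes of the list with a window, in 12.02% of all tested genes with one and in 7.35% of all called genes with one. The window of Hmgcs1, also called, held no E-box. The windows of both are shown as the 2 called members of 1 pathway that hold the site (RefSeq, GRCm38.p6, 5′ to 3′, E-box in capitals).
Hsd17b7 (chr1:169969156-169969455, minus strand): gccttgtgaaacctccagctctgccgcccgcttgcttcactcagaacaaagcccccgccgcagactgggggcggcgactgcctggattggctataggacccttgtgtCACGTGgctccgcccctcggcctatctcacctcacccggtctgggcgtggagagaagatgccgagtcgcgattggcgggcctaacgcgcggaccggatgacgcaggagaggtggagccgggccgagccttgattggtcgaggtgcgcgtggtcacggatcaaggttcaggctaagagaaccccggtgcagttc
Sc5d (chr9:42264251-42264550, minus strand): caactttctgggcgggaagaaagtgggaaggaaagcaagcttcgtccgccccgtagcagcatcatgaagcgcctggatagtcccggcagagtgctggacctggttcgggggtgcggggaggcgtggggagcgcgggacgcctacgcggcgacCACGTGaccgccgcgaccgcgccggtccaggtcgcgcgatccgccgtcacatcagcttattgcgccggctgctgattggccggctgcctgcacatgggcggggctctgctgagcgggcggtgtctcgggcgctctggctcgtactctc

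Mitochondrial mRNAs had negative common effects in 13 of 13 cases. Of the 13, 11 had a negative effect in each of the 3 tissues, beside 1696 of all 12496 genes tested. The list's medians were -0.33 in liver, -0.29 in brain and -0.70 in testis. One was called, mt-Nd5, a subunit of respiratory complex I. It was at 3707, 3534 and 3916 CPM in stress livers, against 5621, 5346 and 5071 CPM in control livers. In brain it was 2612, 2203 and 2124 CPM in stress brains, against 3094, 3201 and 3533 CPM in control brains, and in testis 874, 319 and 738 CPM in stress testes, against 1308, 871 and 992 CPM in control testes (common -0.62 ± 0.13, adjusted p = 0.0200). Groups were apart in liver and brain, and stress testis replicate 2 had the lowest testis value. The list's median of -0.37 became -0.60 without the 3 libraries of stress replicate 1, -0.18 without those of stress replicate 2 and -0.50 without those of stress replicate 3. The call of mt-Nd5 was lost without any 1 of the control animals or without stress replicate 3.

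Acp1, a low-weight tyrosine phosphatase, differed among the stress animals in the same way in each tissue. It was at 16.01, 14.2 and 36.7 CPM in stress livers, against 44.2, 66.8 and 40.8 CPM in control livers. For brain the values were 18.5, 20.4 and 37.2 CPM in stress brains, against 36.9, 54.9 and 34.1 CPM in control brains, and for testis 34.3, 28.5 and 50.3 CPM in stress testes, against 54.6, 62.04 and 50.4 CPM in control testes. Replicates 1 and 2 of the stress group were low in all 3 tissues, and replicate 3 lay close to the lower controls in each (effects of -1.29 ± 0.33 in liver, -0.76 ± 0.32 in brain and -0.59 ± 0.30 in testis, common -0.87 ± 0.18, adjusted p = 0.0199). The call was lost without stress replicate 1 or 2 and without control replicate 1 or 2, and kept in the other 2 of the 6 fits that leave out 1 animal.

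Pygl, the glycogen phosphorylase of liver, was at 318, 314 and 311 CPM in stress livers, against 348, 503 and 462 CPM in control livers, and low in the other tissues, with effects of -0.46 ± 0.12 in liver, -0.43 ± 0.34 in brain and -0.62 ± 0.34 in testis (common -0.48 ± 0.10, adjusted p = 0.0200). Nmnat3, which makes NAD in mitochondria, was at 51.4, 34.5 and 44.7 CPM in stress testes, against 63.8, 47.9 and 61.9 CPM in control testes, with effects of -0.57 in liver, -0.67 in brain and -0.42 in testis (common -0.48 ± 0.11, adjusted p = 0.0372). It was called in 0 of the 6 fits without 1 animal, and so was Churc1, a small zinc-binding protein, with effects of -0.53 in liver, -0.43 in brain and -0.34 in testis (common -0.45 ± 0.11, adjusted p = 0.0479). Zfp438, a zinc finger protein, was most abundant in testis, at 87.1, 76.5 and 86.2 CPM in stress testes, against 115, 92.9 and 113 CPM in control testes (common -0.35 ± 0.08, adjusted p = 0.0360). With equal weight for the tissues the effect of Zfp438 was also -0.35, and it was not called (adjusted p = 0.204, limma). Zfp438 was called in 1 of the 6 fits without 1 animal, and Pygl in 2. Zfp945, another zinc finger protein, kept its call whichever animal was left out, but was not called with 1 mean per animal (adjusted p = 0.216, limma). It was at 17.6, 13.1 and 15.8 CPM in stress brains, against 25.2, 24.98 and 24.9 CPM in control brains, with effects of -0.57 ± 0.18 in liver, -0.71 ± 0.14 in brain and -0.32 ± 0.25 in testis (common -0.60 ± 0.10, adjusted p = 0.00360).

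**Figure D3:**
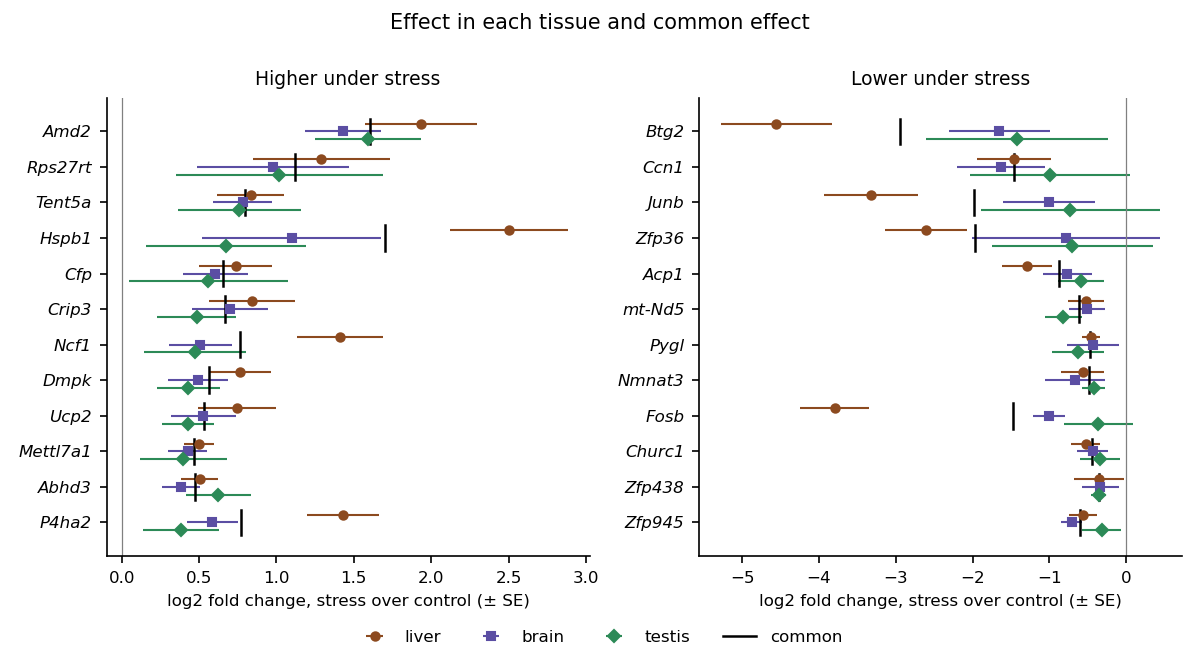
Log2 fold change of stress over control with its SE in liver, brain and testis, and the common effect as a black line, for the 12 genes higher (left) and 12 lower (right) with the largest effect in their weakest tissue. For Amd2, Rps27rt and Tent5a the SE bars of the 3 tissues overlap, while for Hspb1, Btg2, Junb and Fosb the liver bar lies apart from the others.

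In 20 genes every stress library lay above every control library in all 3 tissues (0.16% of the genes tested), and in 10 every stress library lay below (0.08%). Of these, 16 and 3 were called. The 3 lower ones were Hsd17b7, Xrn2, an exoribonuclease that ends transcription, and Tipin, which protects replication forks. Xrn2 was at 92.9, 74.3 and 94.3 CPM in stress testes, against 125, 102 and 103 CPM in control testes (common -0.27 ± 0.06, adjusted p = 0.0315), and Tipin at 8.85, 6.83 and 6.005 CPM in stress brains, against 10.7, 11.5 and 8.92 CPM in control brains (common -0.40 ± 0.09, adjusted p = 0.0239). Among the 16 higher ones, beside those described, Bicd2, a dynein adaptor, was at 26.5, 24.8 and 24.03 CPM in stress livers, against 16.2, 17.7 and 17.03 CPM in control livers (common 0.31 ± 0.06, adjusted p = 0.00982). Prrt1, a synaptic membrane protein, rested on brain, at 184, 183 and 198 CPM in stress brains, against 139, 149 and 175 CPM in control brains, with every liver and testis library under 2 CPM (common 0.35 ± 0.08, adjusted p = 0.0354). LTO1, a factor of ribosome and iron-sulfur protein maturation, was at 20.5, 18.8 and 14.8 CPM in stress livers, against 10.5, 9.43 and 8.35 CPM in control livers (common 0.43 ± 0.09, adjusted p = 0.0241), and Pqlc2, an exporter of cationic amino acids from lysosomes, at 17.9, 16.9 and 17.8 CPM in stress livers, against 14.5, 13.9 and 13.6 CPM in control livers (common 0.30 ± 0.07, adjusted p = 0.0365). These genes were named after their values were seen. Of the 6 fits without 1 animal, Bicd2 was called in 5 and Tipin in 3. Hsd17b7, Prrt1 and LTO1 were called in 1, and Xrn2 and Pqlc2 in 0.

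Several lists held no called gene. Of 79 ribosomal protein genes, 0 were called by voomLmFit and 8 had an unadjusted p under 0.05, and their medians were -0.19 in liver, -0.03 in brain and 0.33 in testis. No gene was called among 17 of MHC class I, 20 of lipogenesis, 24 of the cell cycle, 21 of the Nrf2 response and 6 of metallothionein and zinc handling, where 2, 10, 3, 2 and 0 genes in that order had an unadjusted p under 0.05. Lipogenesis had a median of -0.22, with -0.53 in liver, 0.04 in brain and -0.05 in testis. The core clock had 1 called gene of 19, Per2, and the genes of fasting and PPAR alpha had 2 of 21, Angptl4 and Creb3l3, a liver transcription factor with effects of 0.49 in liver, 0.11 in brain and -0.38 in testis. With equal weight for the tissues the common effect of Creb3l3 was 0.07, against 0.41 in the weighted fit. Of 21 genes of p53 and growth arrest, 2 were called lower, Btg2 and Trp53inp1, which promotes cell death, at 18.7, 10.5 and 19.3 CPM in stress testes, against 22.2, 24.01 and 25.5 CPM in control testes (common -0.65 ± 0.15, adjusted p = 0.0338). Trp53inp1 was called in 0 of the 6 fits without 1 animal.

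**Figure D4:**
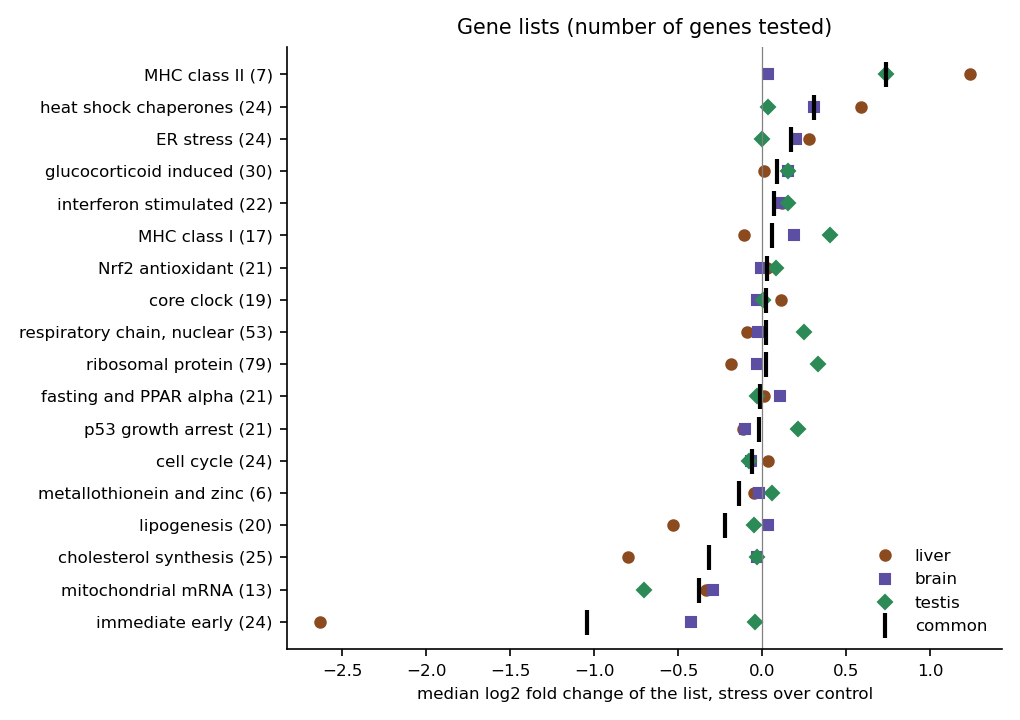
Median log2 fold change of stress over control for each of 18 gene lists, in liver, brain and testis and in common, with the number of genes tested in brackets. Immediate early genes are lowest in liver at -2.63 and near 0 in testis, and MHC class II genes are highest in liver at 1.24 and near 0 in brain.

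The stress effect differed between tissues in 107 of the 12496 genes (0.856%) by an F test of the tissue terms in limma at an adjusted p under 0.05. Of the 191 genes of the common effect, 8 were among them, and of the 165 with 1 sign, 6. A gene outside the 107 is not thereby shown to move alike in the 3 tissues. Tested 1 tissue at a time with edgeR's quasi-likelihood test, stress moved 136 genes up and 112 down among liver libraries (1.98%), 2 up and 0 down among brain libraries (0.016%), and 1 up and 1 down among testis libraries (0.016%). In brain, libraries of the same replicate number deviated together, although no label used here states a pairing. With the number as a block, 49 genes were called in brain. Of the 191 common genes, 63 were also called when liver was tested by itself, 1 when brain was and 1 when testis was, and 128 were called in none of these tests.

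Without the liver libraries, 10 genes were higher and 3 lower in both remaining tissues, against 108 and 57 in all 3. Without stress testis replicate 2 there were 75 higher and 57 lower, without the library labelled stress brain replicate 3 there were 88 and 43, and without stress brain replicates 2 and 3 there were 53 and 25. With TMM factors taken over all 18 libraries at once the split was 78 higher and 81 lower. Among the 191 genes, 8 had over 50% of their 50-base words in transcripts of other genes, 7 of them with 1 sign, so their counts depend on the authors' counting of shared reads.

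**Figure D5:**
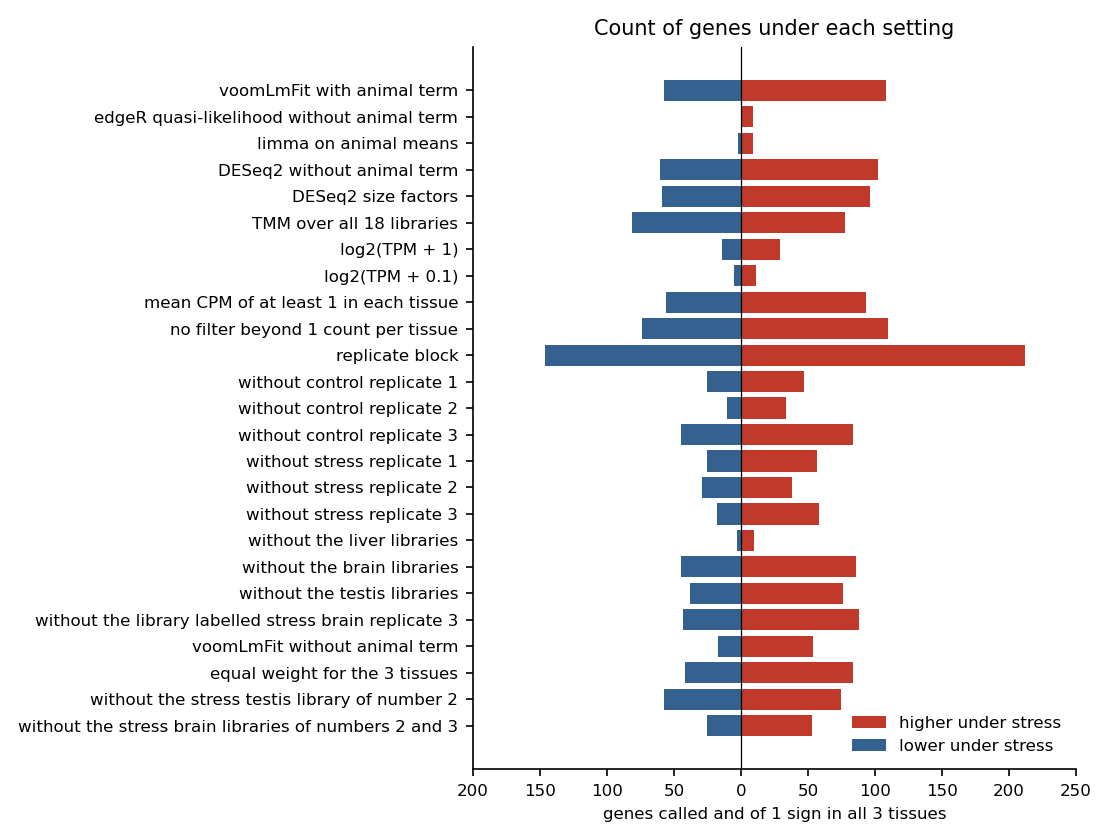
Number of genes called in the common effect and of 1 sign in every tissue fitted, higher under stress (red, to the right) and lower (blue, to the left), under each setting. The bars run from 9 higher and 0 lower with edgeR's quasi-likelihood test to 212 and 146 with the replicate number as a block, beside 108 and 57 in the fit reported.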

How the data were processed

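Total RNA of 18 mouse liver, brain and testis libraries was sequenced after a TruSeq Stranded Total RNA preparation, per the labels' protocols. The authors deposited 1 table with gene counts, TPM and FPKM for every library. The counts were used as deposited, the TPM values deposited by the authors served as an alternative with a pseudocount of 1 or 0.1 on the log2 scale, and the deposited FPKM values were not used. The genome build was mm39, per the submitters' processing notes. The aligner, the counter, its strand setting and the annotation were not given in the sources used here.

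Genes were kept if edgeR's filterByExpr passed them in each tissue. TMM factors were computed within each tissue. The fit was edgeR 4.0.16's voomLmFit with limma 3.58.1 in R 4.3.3, with tissue and stress as terms and animal as a random block, and Benjamini-Hochberg adjustment over all 12496 genes at a threshold of 0.05. Tissue effects and the F test of their difference came from a fit with stress within each tissue. Tissues alone were tested with edgeR's quasi-likelihood test. DESeq2 1.42.0 was an alternative. The residual spread is that between libraries, and nothing in the labels states how far the shared codes mark 1 mouse. For a single value, 3 animals against 3 allow no exact permutation p below 0.1.

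In brain, libraries of the same replicate number in stress and control deviated together (correlations of 0.235, 0.174 and 0.386). In liver (0.178, 0.036 and 0.016) and testis (0.103, 0.073 and -0.103) they did not all do so. Deviations of 1 animal across its tissues correlated by -0.023 to 0.143.

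Genes named were Fkbp5, Tsc22d3, Zbtb16, Per1, Sgk1 and Nr3c1, the 12 higher and 12 lower called genes of 1 sign with the largest effect in their weakest tissue and at least 1 CPM in each, up to 4 members of each list by smallest p, and the 5 with the smallest p for a tissue difference, among all and among called genes. Predicted genes and pseudogenes were passed over, 12 of the called genes, and 1 gene that the rule takes is not reported here. The effect, the lists and the members were chosen with earlier results of these data known. Shared 50-base words were counted in GENCODE M21 transcripts. Promoter windows came from RefSeq (GRCm38.p6), with 65 of 91 named genes matched. The models were tested on simulated data, where the fit of the common effect made more false calls than its threshold allows.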

Additional observations from a re-analysis of the deposited data

Results flagged for a closer look

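The stress effect differed between the tissues, by the F test of the tissue terms in limma, in 12 of the genes named. Of these, 7 were called for the common effect. Tsc22d3 (adjusted p = 0.00783), Per2 (adjusted p = 0.0253) and Fkbp5 (adjusted p = 0.0375) had their largest effect in liver and their smallest in brain or testis. The largest effect of C4a, a complement component (adjusted p = 0.00783), was also in liver, with effects of 2.06 ± 0.11 in liver, 0.61 ± 0.28 in brain and 0.15 ± 0.25 in testis. For C4a, 30.6% of the 50-base words occur in other genes. Socs3 (adjusted p = 0.00829) and Fosb (adjusted p = 0.0128) were lowest in liver, and so was Hmgcs1 (adjusted p = 0.0215).

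The other 5 genes were Acsl3, Tchh, Scd1, Camk1d and St3gal5. Acsl3, which activates fatty acids, had effects of -1.29 ± 0.11 in liver, 0.10 ± 0.08 in brain and -0.15 ± 0.10 in testis (adjusted p = 2.10e-04). Tchh, trichohyalin, had effects of -2.85 in liver, -0.17 in brain and -0.24 in testis (adjusted p = 7.16e-04), and Scd1, the stearoyl-CoA desaturase, -2.27 in liver, 0.15 in brain and -0.17 in testis (adjusted p = 7.16e-04). Camk1d, a calcium-dependent kinase, had effects of -0.98 in liver, 0.04 in brain and 0.08 in testis (adjusted p = 0.00126), and St3gal5, which makes the ganglioside GM3, 1.01 in liver, -0.21 in brain and 0.17 in testis (adjusted p = 0.00232).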

How the results depend on the processing

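Beside 123 genes called higher and 68 lower, edgeR's quasi-likelihood test gave 9 and 0 (1630 genes at an unadjusted p under 0.05), animal means 9 and 2, log2(TPM + 1) 29 and 14, log2(TPM + 0.1) 11 and 5, the fit without liver 10 and 3, and without testis 80 and 40. Without a filter 115 were lower. Leaving out 1 animal gave 39 to 96 higher and 15 to 51 lower. Of genes with 1 sign in every tissue fitted, 108 higher and 57 lower, the same settings gave 9 and 0, 9 and 2, 29 and 14, 11 and 5, 10 and 3, and 76 and 38, and leaving out 1 animal 34 to 84 and 10 to 45, lowest without control replicate 2. Chosen after seeing the data, the fit without an animal term gave 60 and 22 called (54 and 17 with 1 sign), and that without stress brain replicates 2 and 3 gave 66 and 33 (53 and 25). Without the library labelled stress brain replicate 3 there were 99 higher, 88 of them with 1 sign. Leaving out stress testis replicate 2, also added then, kept both counts within 1.5 times. Equal weight for the tissues did so too, yet kept only 78 of the 191 genes called, and it moved Socs3 to -0.94, C4a to 0.94, Angptl4 to 1.21, Creb3l3 to 0.07 and Prrt1 to 0.58, against -2.26, 1.58, 1.97, 0.41 and 0.35. Why the counts moved was not tested.

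With the replicate number as a block, 259 and 186 genes were called (212 and 146 with 1 sign). Tissue by tissue, the block gave 482 genes for liver, 49 for brain and 3 for testis, against 248, 2 and 2. No label used here states that libraries of 1 number in stress and control are a pair. DESeq2 called 687, 111 and 23. Leaving out 1 animal gave 24 to 310 for liver, 0 to 2 for brain and 0 to 10 for testis. The 107 tissue differences became 69 without a filter and 6 to 148 without 1 animal, with 6 without stress replicate 3 and 13 without control replicate 2.

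Without liver the common log2 fold change reversed for Scd1 (0.0776), Camk1d (0.0478), St3gal5 (-0.0648), Socs3 (0.206), Creb3l3 (-0.164), Amd1 (-0.0462) and Rps27 (0.0125). Per1 ran from -0.00224 without control replicate 1 to 0.297 without control replicate 3. Low counts limit genes near 1 CPM.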
